A study of Mus with 2 samples.

Results

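A set of 10 genes of bone morphogenetic protein (BMP) signalling were followed through the cell types of the newborn mouse kidney. They were the ligand genes Bmp2, Bmp4 and Bmp7, the genes of the secreted BMP-binding proteins Bmper, Nog, Grem1 and Sostdc1, and the response genes Id1, Id2 and Id3. The genes were taken by symbol, and all 10 were found among the 28693 features counted. The kidneys were collected at P0 from mice of genotype Rbpj c/- ; Foxd1cre/+, in which the floxed Rbpj allele is removed from the renal interstitium by Cre under the Foxd1 gene, so that cells never expressing Foxd1 keep that allele, while the second allele, written -, is carried by every cell. The design of the series names 2 control libraries (Rbpj c/+ ; Foxd1cre/+) and 2 mutant libraries. Only the 2 mutant libraries were analysed here, so every value below is a level in mutant kidneys and every comparison is between cell types of the same 2 kidney libraries, called replicates 1 and 2. Both carry the Cre allele, and the controls named in the design do as well. The labels do not say whether the 2 libraries came from separate animals or pools, so p-values hold for these 2 libraries only. They rest on the scatter left after the overall shift between the libraries was removed, with the spread estimated over all classes of a fit together.

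BMPs are secreted dimers that bind pairs of serine/threonine kinase receptors and lead to phosphorylation of SMAD1, SMAD5 and SMAD9, which enter the nucleus with SMAD4. The Id genes, which encode helix-loop-helix proteins that dimerise with other transcription factors but do not bind DNA themselves, are direct targets of these SMADs in many tissues. Noggin, gremlin and SOSTDC1 hold BMPs away from their receptors, whereas BMPER binds BMPs and has been described both as an inhibitor and as an enhancer of their action. In the developing kidney, BMP7 is known for keeping nephron progenitors alive and dividing, BMP4 for restraining ectopic budding and organising the smooth muscle of the ureter, and gremlin for relieving BMP4 inhibition where the ureteric bud first forms.

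All 10 are protein-coding genes in the RefSeq annotation of GRCm38, the assembly of the mm10 build that the submitters' processing notes name. Bmp2 lies at chr2:133552159-133562896, Bmp4 at chr14:46383525-46390669 and Bmp7 at chr2:172868012-172940321. Bmper lies at chr9:23223076-23485215, Nog at chr11:89300638-89302559, Grem1 at chr2:113748675-113758648 and Sostdc1 at chr12:36314169-36318452. Id1 lies at chr2:152736251-152737410, Id2 at chr12:25093799-25096092 and Id3 at chr4:136143822-136145392.

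RNA was counted as unique molecular identifiers (UMIs) from the 3' ends of cDNA in single cells, with 163405630 UMIs in replicate 1 and 135436576 in replicate 2. Barcodes with at least 2000 UMIs and at most 10% mitochondrial UMIs were kept, and after removal of likely doublets 5910 and 4937 cells remained, with medians of 11727.5 and 12196 UMIs. Only 8 barcodes with at least 2000 UMIs occurred in both libraries. Cells were clustered without the 10 genes and clusters were named from marker genes, so each name ends in "-like". The 11 classes that reached 20 cells in both replicates ranged from 49 mural-like to 1843 nephron progenitor-like cells, and 16.7% and 16.2% of the cells stayed in unnamed clusters. The markers supported the names to different degrees. Six2 had a UMI in 93.5% of the nephron progenitor-like cells and Nphs1 in 98.0% of the podocyte-like cells, while Umod, a marker of the mature loop, was seen in only 36.6% of the loop of Henle-like cells, of which 71.5% had Slc12a1. Ret was seen in 45.3% and Wnt11 in 37.3% of the ureteric epithelium-like cells. All mural-like cells had Acta2, but only 34.7% had Rgs5, against 63.5% in an unnamed cluster of 687 cells. The distal tubule gene Slc12a3 had a UMI in 8.97% of the loop of Henle-like cells against 0.846% of the other named cells, and Klk1 and S100g were among their leading genes, and no cluster took the distal tubule name at the main setting. Levels are given as CPM, the UMIs of a gene in a class and library scaled to a class total of 1000000 UMIs. The stroma-like class, the targeted compartment, held Rbpj at 25.9 and 24.6 CPM, and the labels do not give the deleted exons, so these 3' counts cannot check the deletion.

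Among the ligands, Bmp2 was highest in the early nephron-like class, the cells just past the progenitor state, at 47.1 CPM in replicate 1 and 62.3 in replicate 2. The ureteric epithelium-like class (15.5 and 22.9 CPM) and the loop of Henle-like class (21.7 and 16.7) followed and overlapped each other. Endothelial-like cells came next at 12.9 and 14.6 CPM, and immune-like cells were uneven at 3.51 and 11.2. The stroma-like (1.28 and 1.95), nephron progenitor-like (1.18 and 1.51), proximal tubule-like (1.68 and 2.36) and podocyte-like (0.60 and 3.78) classes all lay under 4 CPM, and no Bmp2 UMI was counted in the 49 mural-like cells. Of the kidney's own classes, the interstitial and progenitor ones were thus among the low ones. The ureteric level came from few cells: 88 of the 110 UMIs of replicate 1 lay in a sub-cluster of 28 cells and 101 of the 118 UMIs of replicate 2 lay in another of 12 cells, and these were different sub-clusters.

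Bmp4 was highest in early nephron-like cells (133 and 122 CPM) and next in proximal tubule-like (97.3 and 107), podocyte-like (91.7 and 106) and mural-like cells (104 and 90.8), and the neighbours among these last 3 overlapped. Stroma-like cells held 65.9 and 56.1 CPM, below those 4 classes and above the endothelial-like cells at 40.7 and 30.1. The endothelial-like, loop of Henle-like (30.3 and 22.3) and nephron progenitor-like (25.7 and 17.9) classes overlapped from neighbour to neighbour. Ureteric epithelium-like cells were low at 6.19 and 4.46 CPM, overlapping the immune-like cells at 4.67 and 3.99. The Bmp4 transcript was therefore found in nephron epithelium as well as in the interstitium, and least among the kidney's own tissues in the ureteric tree.

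Bmp7 was highest in podocyte-like cells, the filtering epithelium of the glomerulus, at 267 and 253 CPM. The ureteric epithelium-like (77.0 and 73.6), loop of Henle-like (63.9 and 62.8), early nephron-like (44.5 and 41.9), nephron progenitor-like (39.8 and 37.9) and proximal tubule-like (20.1 and 19.8) classes followed in that order, with no overlap between neighbours. The stroma-like class held 5.13 and 3.16 CPM, endothelial-like cells 3.20 and 0.961, and mural-like cells no UMI. Of the 10 pairs of neighbouring classes in the order of Bmp7 levels, 9 were apart in both libraries, against 4 for Bmp2, 5 for Bmp4, 7 for Sostdc1 and 8 for Id3. The lowest of these Bmp7 pairs, endothelial-like over immune-like (0.584 and 0.797 CPM) and immune-like over mural-like cells, rested on very low levels. The same count was not made over all genes. Bmp7 was thus higher in the nephron and ureteric classes, progenitors included, than in stroma-like, endothelial-like and mural-like cells.

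**Figure D1:**
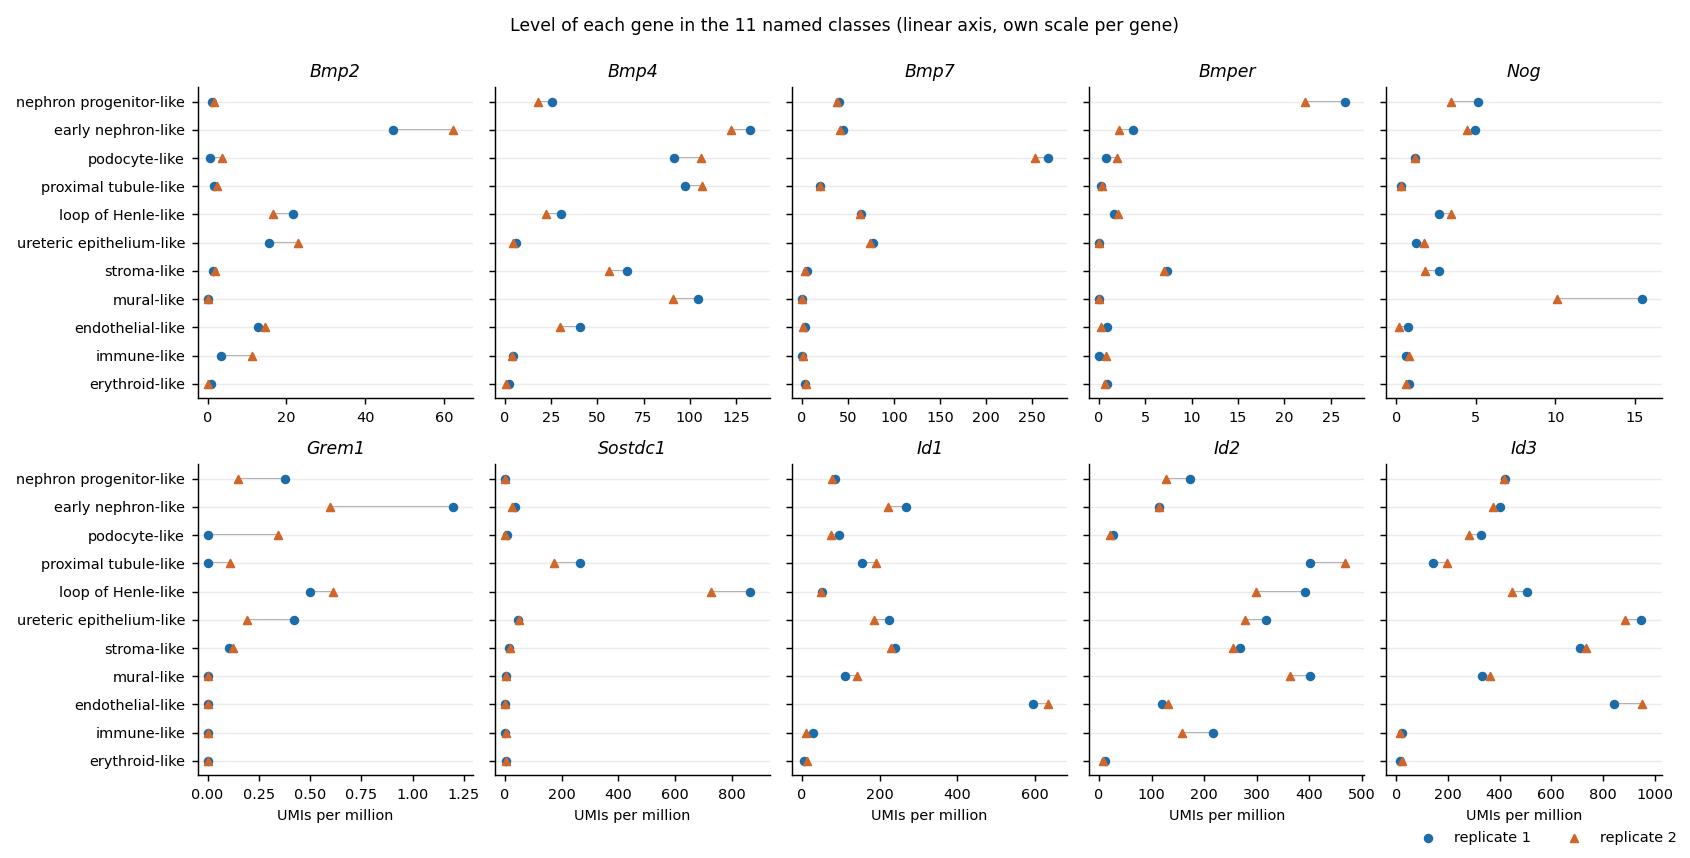
Each panel plots 1 gene, with CPM on a linear horizontal axis of its own and the 11 named classes on the vertical axis; circles are replicate 1, triangles replicate 2, and the line joins them. Bmp7 peaks in podocyte-like cells (267 and 253), Sostdc1 in loop of Henle-like cells (865 and 726) and Id1 in endothelial-like cells (595 and 633).

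Among the genes of BMP-binding proteins, Bmper was highest in nephron progenitor-like cells at 26.5 and 22.3 CPM, then in stroma-like cells at 7.37 and 7.06 and in early nephron-like cells at 3.66 and 2.13, each apart from the next. Ureteric epithelium-like cells gave no Bmper UMI in either library, which allows levels of up to 0.422 and 0.581 CPM (3 counts of each class total, counting error only). Sostdc1 was by far most abundant in the loop of Henle-like class, at 865 and 726 CPM, and then in proximal tubule-like (266 and 173), ureteric epithelium-like (46.2 and 50.4), early nephron-like (34.6 and 25.4) and stroma-like cells (14.3 and 16.9), with no overlap between neighbours. Nephron progenitor-like cells, the class with the most Bmper, had Sostdc1 at 2.28 and 1.56 CPM, overlapping the endothelial-like cells as the lowest of the 11 classes.

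Nog, the noggin gene, was low in the classes as named. Its highest level, 15.4 and 10.1 CPM in the mural-like class, rested on 4 and 2 UMIs, with exact Poisson 95% intervals of 4.21 to 39.5 and 1.22 to 36.4 CPM. Early nephron-like (4.93 and 4.43), nephron progenitor-like (5.15 and 3.42) and loop of Henle-like cells (2.70 and 3.43) overlapped from neighbour to neighbour, and stroma-like cells held 2.67 and 1.83 CPM. Grem1 was at the limit of detection, with 57 and 34 UMIs over all kept cells. Its highest class was early nephron-like, with 18 and 7 UMIs (1.20 and 0.596 CPM), and the endothelial-like, mural-like, immune-like and erythroid-like classes had none. Grem1 did not pass the filter on low counts and was not tested, so 9 of the 10 genes were.

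The Id genes, the responding side of the pathway, did not share 1 order. Id1 was highest in endothelial-like cells (595 and 633 CPM), ahead of early nephron-like (268 and 222) and stroma-like cells (240 and 228), which overlapped. Nephron progenitor-like (84.7 and 78.3), podocyte-like (94.4 and 76.0) and loop of Henle-like cells (52.8 and 48.0) were the lowest of the kidney's own classes. Id3 was highest in ureteric epithelium-like (949 and 886) and endothelial-like cells (844 and 951), which overlapped, followed by stroma-like (711 and 734), loop of Henle-like (505 and 446) and nephron progenitor-like cells (422 and 418). Proximal tubule-like cells had the least Id3 of the kidney's own classes, at 141 and 197 CPM. Id2 ran the other way in the tubule: proximal tubule-like (401 and 468), mural-like (401 and 363), loop of Henle-like (392 and 298) and ureteric epithelium-like cells (319 and 278) were high and overlapped from neighbour to neighbour, stroma-like cells held 268 and 255, and podocyte-like cells only 27.2 and 21.1.

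The class differences were tested with edgeR's quasi-likelihood test on UMIs summed per library and class, and the Benjamini-Hochberg adjustment of p-values ran over every gene in the fit. So many genes differ between cell types that a call alone says little, and the share of all genes called is given beside each count. The contrasts share classes, so they are not independent of each other.

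**Figure D2:**
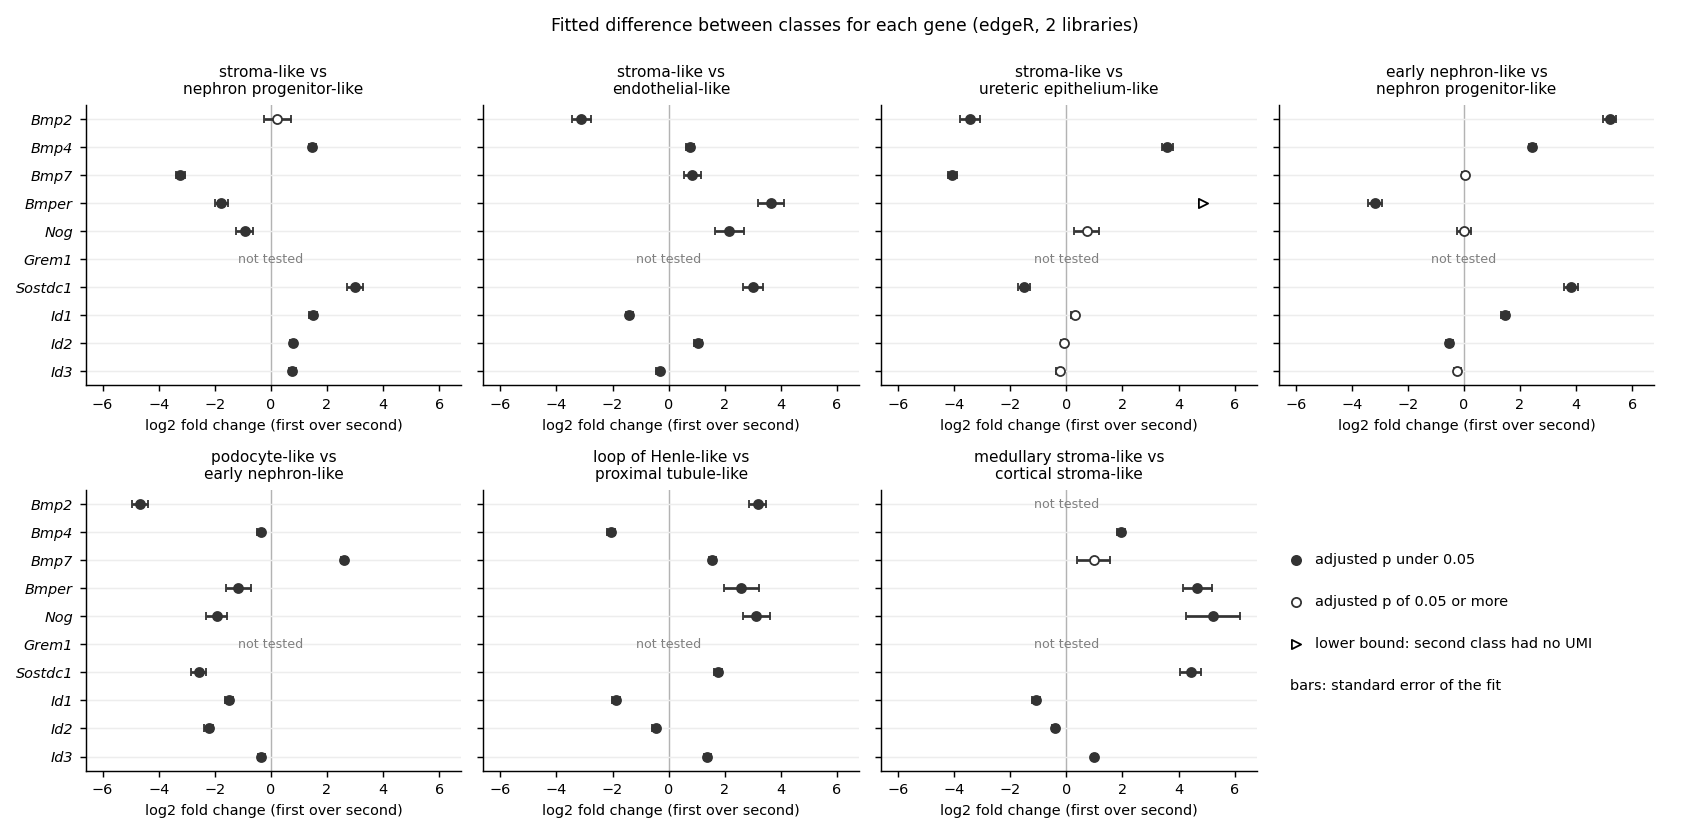
Each panel is 1 contrast, with the fitted log2 fold change of each gene on the horizontal axis and its standard error as a bar; filled points passed an adjusted p of 0.05, open points did not, and the open triangle is a lower bound because the second class had no UMI. Bmp7 lies far to the left in the contrasts of stroma-like with nephron progenitor-like (-3.23) and ureteric epithelium-like cells (-4.06), and Bmp2 far to the right in the early nephron-like class (5.20).

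Against the neighbouring nephron progenitors, the interstitium had less Bmp7 RNA and more Bmp4, Sostdc1 and Id RNA. Of the 9 tested genes, 8 were called between stroma-like and nephron progenitor-like cells, 5 higher in stroma-like cells and 3 lower, where 55.3% of all genes were called (27.7% higher, 27.6% lower). Bmp7 fell from 38.8 ± 1.3 CPM in the progenitor-like class to 4.15 ± 1.4 in the stroma-like class (SD, n = 2 libraries), a log2 fold change of -3.23 ± 0.17 (SE, adjusted p = 2.9e-14). The stroma-like level overlapped that of erythroid-like cells (3.72 and 4.16 CPM) but lay above that of immune-like cells (0.584 and 0.797). Taken against the erythroid-like level it is not above background, and the size of this difference is limited by that background. Bmper (-1.77 ± 0.24) and Nog (-0.94 ± 0.30, adjusted p = 0.0098) were also lower in stroma-like cells. The Nog call rested on 25 and 15 against 122 and 70 UMIs and was lost with a mitochondrial limit of 5% (-1.08, adjusted p = 0.073). With the marker gate the Nog difference was -1.65 (adjusted p = 6.9e-05). Bmp4 was higher by 1.47 ± 0.13, Sostdc1 by 2.99 ± 0.29, Id1 by 1.5 ± 0.13, Id2 by 0.79 ± 0.12 and Id3 by 0.76 ± 0.12 on the log2 scale. The progenitor-like Sostdc1 level (2.28 and 1.56 CPM) lay below that of erythroid-like cells (3.72 and 2.97). The size of the Sostdc1 difference is therefore limited by background too. Bmp2, at 1.61 ± 0.47 against 1.35 ± 0.23 CPM, did not pass the test (log2 fold change 0.23 ± 0.48, adjusted p = 0.72), and was called higher in stroma-like cells without doublet removal (1.13) or with at least 5000 UMIs per cell (1.46). The median log2 fold change of the 9 genes was 0.76, and that of all genes tested was -0.01. With the mitochondrial limit of 5% Sostdc1 was 1.96 and Bmper -2.46, and with the marker gate Sostdc1 was 2.37.

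A list of 47 other BMP pathway genes gave the wider setting of this contrast, and 44 of them could be tested. Of these, 34 were called, 28 higher in stroma-like cells and 6 lower, where 27.7% of all genes were higher and 27.6% lower. Their median log2 fold change was 1.14, against -0.01 over all genes. In the group listed as ligands 5 of 7 tested genes were higher. The 8 genes of that group include Bmp1, which encodes a protease, so this is not a count of BMP ligands alone. Among receptors 6 of 10 were higher and 2 lower, and among SMADs 1 of 4 higher and 1 lower. Among extracellular modulators 11 of 15 were higher and 2 lower, and among feedback and target genes 5 of 8 higher and 1 lower. The 3 largest changes were in Smoc2, a matricellular BMP modulator (63.4 ± 10 against 0.665 ± 0.16 CPM), Acvrl1, a type I receptor of endothelium and mesenchyme (22.9 ± 2.0 against 0.403 ± 0.087), and Eng, the co-receptor endoglin (65.8 ± 44 against 1.19 ± 0.17). Their log2 fold changes were 6.53 ± 0.18, 5.75 ± 0.21 and 5.71 ± 0.26. The Eng level in stroma-like cells differed between the libraries, with 908 UMIs in replicate 1 and 284 in replicate 2. Eng is also a defining gene of endothelium; Pecam1 and Cdh5 had a UMI in 2.67% and 2.19% of the cells of the other named classes, and their part in the Eng level was not tested.

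Endothelial-like cells had more Bmp2 and Id1 than stroma-like cells and less Bmper, Sostdc1 and Nog. All 9 tested genes were called, 6 higher in stroma-like cells and 3 lower, where 51.7% of all genes were called (26.5% higher, 25.2% lower). Bmp2 was 13.7 ± 1.2 CPM in endothelial-like cells against 1.61 ± 0.47 in stroma-like cells (log2 fold change -3.11 ± 0.35, adjusted p = 5.4e-08), and Id1 614 ± 26 against 234 ± 8.5 (-1.40 ± 0.13, adjusted p = 1.2e-09). Id3 was lower in stroma-like cells by only -0.32 ± 0.12 (adjusted p = 0.024), and that call was lost under 8 of the alternative settings, where the values ran from -0.18 to -0.32. Stroma-like cells were higher in Bmper (3.65 ± 0.45), Sostdc1 (3.01 ± 0.37), Nog (2.16 ± 0.51), Id2 (1.05 ± 0.13), Bmp7 (0.85 ± 0.30, adjusted p = 0.020) and Bmp4 (0.76 ± 0.14) on the log2 scale. The Bmper and Nog values rested on 8 and 1 and on 7 and 1 endothelial-like UMIs, and the direct ratios of pooled CPM were 12.8 (95% counting interval 6.52 to 28.6) and 4.53 (2.09 to 11.2). Endothelial-like Sostdc1 (1.86 and 2.08 CPM) lay below the erythroid-like level (3.72 and 2.97). The endothelial-like Bmper and Nog levels overlapped those of erythroid-like cells. The sizes of the Sostdc1, Bmper and Nog differences are therefore limited by background. Bmp7 was near background in both classes, since the stroma-like level overlapped that of erythroid-like cells (3.72 and 4.16 CPM) and the endothelial-like level lay below it, so its call is not read as a difference in expression. The Bmp7 difference was 0.58 in replicate 1 alone and 1.49 in replicate 2 alone, and without replicate 2 Bmper was 2.80 and Nog 1.56. Such single-library values are differences of log2 CPM with a small prior count, not fitted values, and low counts make them smaller in size. With a mitochondrial limit of 5% the Nog call was lost (1.43, adjusted p = 0.13), and Bmp2 was -2.27, Bmper 2.84 and Sostdc1 1.95.

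Stroma-like cells had more Bmp4 and Bmper than the ureteric epithelium-like cells and less Bmp7, Bmp2 and Sostdc1. Of the 9 tested genes 5 were called, 2 higher in stroma-like cells and 3 lower, where 57.5% of all genes were called (27.8% higher, 29.7% lower). Bmp4 was 61.0 ± 6.9 CPM in stroma-like against 5.32 ± 1.2 in ureteric epithelium-like cells (log2 fold change 3.60 ± 0.20, adjusted p = 4.9e-14). Bmp7 went the other way, at 4.15 ± 1.4 against 75.3 ± 2.4 CPM (-4.06 ± 0.17, adjusted p = 2.5e-16), as did Bmp2 (-3.44 ± 0.35) and Sostdc1 (-1.52 ± 0.21). The size of the Bmp7 difference is again limited by the background level in stroma-like cells. A sub-cluster of 23 cells led by Hoxa11 and Hoxa10 held 102 of the 328 ureteric Sostdc1 UMIs in replicate 1 and 176 of the 260 in replicate 2, at 379 and 238 CPM, while the other ureteric sub-clusters lay between 5.97 and 66.1 CPM. With the marker gate the Bmp2 difference was -2.44. Bmper was at least 29.5-fold higher in stroma-like cells, from 69 and 58 UMIs against none, with the floor of 3 counts taken over both libraries; the fitted log2 fold change of 8.88 depends on those zeros and was 3.16 without doublet removal, 3.15 with at least 5000 UMIs and 2.75 with the per-cell marker gate. The Bmp4 difference was 1.72 without doublet removal and 1.89 with the per-cell marker gate. Id1 (0.30 ± 0.13, adjusted p = 0.062), Id2 (-0.08 ± 0.12, adjusted p = 0.59), Id3 (-0.24 ± 0.12, adjusted p = 0.084) and Nog (0.72 ± 0.43, adjusted p = 0.16) did not pass the test, which does not show that they were equal. Without the filter on low counts Id1 (adjusted p = 0.0045) and Id3 (adjusted p = 0.031) were called, and Id3 also with the marker gate (adjusted p = 0.024).

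From progenitor to early nephron, Bmp2, Bmp4, Sostdc1 and Id1 were higher and Bmper was lower. Of the 9 tested genes 6 were called, 4 higher in early nephron-like cells and 2 lower, where 44.3% of all genes were called (20.5% higher, 23.8% lower). Bmp2 was 54.7 ± 11 against 1.35 ± 0.23 CPM (log2 fold change 5.20 ± 0.23, adjusted p = 2.3e-15), Bmp4 128 ± 7.4 against 21.8 ± 5.5 (2.43 ± 0.13), Sostdc1 34.6 and 25.4 against 2.28 and 1.56 (3.82 ± 0.25) and Id1 245 ± 33 against 81.5 ± 4.6 (1.46 ± 0.13). Bmper, at 2.89 ± 1.1 against 24.4 ± 3.0 CPM, was lower in early nephron-like cells (-3.17 ± 0.26, adjusted p = 4.4e-10). Id2 was lower by a log2 fold change of -0.52 ± 0.12 (adjusted p = 0.0013), and this turned to 0.22 (adjusted p = 0.15) at Leiden resolution 0.5 and was -1.16 (adjusted p = 5e-06) with the mitochondrial limit of 5%. The Sostdc1 difference ranged from 1.39 with at least 5000 UMIs to 4.80 at resolution 0.5. Its size is limited by background, since the progenitor-like level lay below that of erythroid-like cells (3.72 and 2.97 CPM). The Bmper difference was -1.52 at resolution 0.5, -1.89 with at least 5000 UMIs and -2.07 with the marker gate, and Bmp2 was 6.5 with at least 5000 UMIs. Bmp7 (0.03 ± 0.11, adjusted p = 0.87), Nog (0.01 ± 0.25, adjusted p = 1.0) and Id3 (-0.24 ± 0.12, adjusted p = 0.10) did not pass the test. Bmp7 was called with the 5% limit (0.42, adjusted p = 0.013), at resolution 2 (0.31, adjusted p = 0.035) and with the marker gate (0.37, adjusted p = 0.015), Nog with the marker gate (1.09, adjusted p = 0.00022) and Id3 without the filter on low counts (adjusted p = 0.025).

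Podocyte-like cells had more Bmp7 than early nephron-like cells and less of the other tested genes. All 9 tested genes were called between podocyte-like and early nephron-like cells, 1 higher and 8 lower, where 61.9% of all genes were called (32.0% higher, 29.9% lower). Bmp7 was 260 ± 9.6 against 43.2 ± 1.9 CPM, a log2 fold change of 2.60 ± 0.11 (adjusted p = 3.9e-16). The lower genes were Bmp2 (-4.68 ± 0.29), Sostdc1 (-2.58 ± 0.28), Id2 (-2.22 ± 0.16), Nog (-1.94 ± 0.38), Id1 (-1.51 ± 0.14), Bmper (-1.17 ± 0.45), Bmp4 (-0.36 ± 0.12, adjusted p = 0.015) and Id3 (-0.34 ± 0.12, adjusted p = 0.018). The last 3 were small or uneven: Bmper was -2.07 in replicate 1 alone and -0.14 in replicate 2 alone, and without the library as a block Bmp4 and Id3 were not called (-0.36 and -0.34, adjusted p = 0.055 and 0.066). The Bmper call was also lost without doublet removal (-0.89, adjusted p = 0.06) and the Bmp4 call with DESeq2 (-0.42, adjusted p = 0.05). At Leiden resolution 0.5 the differences were larger, at -3.32 for Bmper, -1.15 for Bmp4, -0.95 for Id3, -3.46 for Id2 and -2.21 for Id1, and with the marker gate Nog was -3.1. Bmp2 was -5.91 in replicate 1 alone and -3.93 in replicate 2 alone, from 4 and 22 podocyte-like UMIs. Sostdc1 in podocyte-like cells was 8.40 CPM in replicate 1 and 1.20 in replicate 2, and its difference was -4.09 without replicate 1 and turned to 0.04 (adjusted p = 0.96) with at least 5000 UMIs per cell.

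The clusters behind these classes showed further steps, given as levels without a test. Of the 2 early nephron-like clusters, the one led by Lhx1, Npy and Sfrp2 (cluster 17) held nearly all of the Bmp2, 70.8 and 95.1 CPM against 8.23 and 8.54 in the one led by Osr2 and Cdh6 (cluster 2). The latter held the Sostdc1, 68.8 and 57.1 CPM against 13.6 and 6.03. Within podocyte-like cells, Bmp4 was 166 and 166 CPM in the cluster led by Pcp4 and Ndnf (cluster 7) and 42.3 and 47.8 in the cluster with Thsd7a and Nphs1 among its leading genes (cluster 12), while Bmp7 was 234 and 255 against 289 and 251 and overlapped. Within the progenitor-like cells, the largest cluster, led by Cited1 and Crym (cluster 20), had the least Bmper of the 3, at 17.3 and 15.4 CPM against 34.5 and 28.9 in the cluster led by Six2 and Osr1 (cluster 25).

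The unnamed clusters 0, 4 and 16 held the highest Nog, Bmper, Bmp4 and Id3 levels among the clusters shown in the plot of levels by cluster. Cluster 0 (2.71% and 3.93% of the cells), led by Sim2, Irx1, Lgr5 and Fgf8 and with Lhx1 in 90.7% and Umod in 45.2% of its cells, was kept out of the loop name by a rule on Slc12a1, which only 25.1% of its cells had. Its Nog level was 38.8 and 33.6 CPM, from 283 and 193 UMIs, and it held Bmp2 at 64.8 and 52.4 and Sostdc1 at 148 and 138. Cluster 4 (4.03% and 4.13%), with Six2 in 64.3% and Wnt4 in 81.5% of its cells and led by Col9a1 and Slc26a7, scored too low for the progenitor name and held Bmper at 84.9 and 70.6 CPM and Nog at 20.5 and 14.6. Cluster 16 (2.17% and 1.56%), led by Ms4a2, Tagln and Wnt16, had Wt1 in 87.3%, Pax8 in 71.2%, Wnt4 in 58.05% and Nphs1 in 52.2% of its cells. Acta2 was seen in 67.3%, Foxd1 in 61.0%, Pdgfrb in 55.6% and Col1a1 in 49.8%. Genes from the nephron, stromal and mural marker lists were thus all frequent, so the cluster cannot be placed in a single lineage from these markers. It held Bmp4 at 255 and 285 CPM, Bmper at 65.1 and 74.2, Id1 at 685 and 509 and Id3 at 1402 and 1418. Bmper and Nog were also among the 10 leading genes of clusters 4 and 0, although neither gene had been used to form the clusters.

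**Figure D3:**
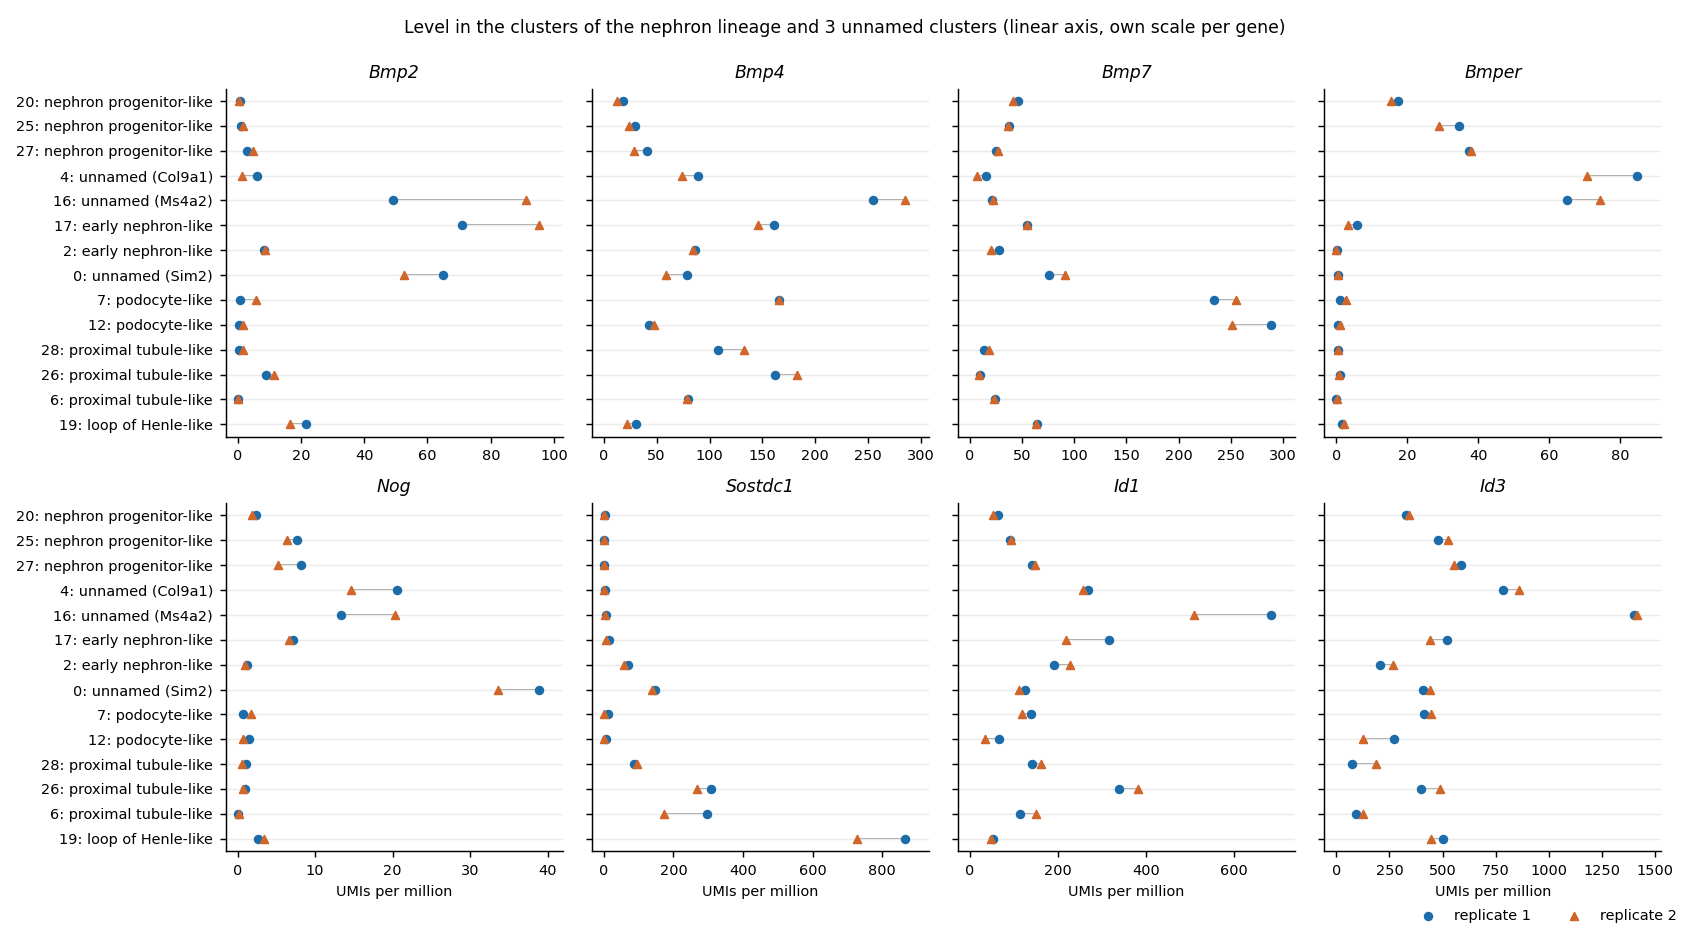
Each panel plots 1 gene, with CPM on a linear horizontal axis of its own and 14 clusters on the vertical axis; a leading gene stands in brackets for the 3 unnamed clusters, circles are replicate 1 and triangles replicate 2. Nog peaks in cluster 0 (38.8 and 33.6), Bmper in cluster 4 (84.9 and 70.6) and Bmp4 in cluster 16 (255 and 285).

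Along the tubule, the loop of Henle-like cells had more Sostdc1, Bmp7, Bmp2 and Id3 and less Bmp4 and Id1 than the proximal tubule-like cells. All 9 tested genes were called, 6 higher in loop-like cells and 3 lower, where 46.5% of all genes were called (23.5% higher, 23.0% lower). Sostdc1 was 796 ± 98 against 220 ± 66 CPM (log2 fold change 1.76 ± 0.15, adjusted p = 2.5e-10) and Bmp7 63.4 ± 0.76 against 19.9 ± 0.17 (1.56 ± 0.12, adjusted p = 1.2e-10). Bmp2 was higher by 3.17 ± 0.29, Id3 by 1.38 ± 0.12, Nog by 3.13 ± 0.48 and Bmper by 2.59 ± 0.62 on the log2 scale; for Nog and Bmper the proximal class had 4 and 3 and 3 and 3 UMIs, with direct ratios of 9.68 (95% counting interval 4.40 to 25.2) and 6.78 (2.80 to 19.8). The proximal Nog and Bmper levels lay below those of erythroid-like cells, so the sizes of these differences are limited by background. In the single libraries Bmp2 was 3.39 and 2.57, Nog 2.34 and 2.52 and Bmper 1.89 and 1.87. Nog was not called without doublet removal (1.25, adjusted p = 0.16). Bmp4 was lower, at 26.3 ± 5.6 against 102 ± 6.7 CPM (-2.07 ± 0.14, adjusted p = 2.5e-12), as were Id1 (-1.89 ± 0.14) and Id2 (-0.46 ± 0.12, adjusted p = 0.0028). The Id2 difference was -0.17 in replicate 1 alone and -0.76 in replicate 2 alone, and was not called with at least 5000 UMIs per cell (-0.24, adjusted p = 0.24). With at least 5000 UMIs Id3 was 0.74, Bmper 4.1 and Nog 4.4, and with the marker gate Bmper was 1.34, Nog 5.6 and Id1 -1.14. At Leiden resolution 0.5 the differences were -1.0 for Bmp4, -0.89 for Id1, 1.03 for Sostdc1, 7.75 for Bmp2 and 7.58 for Nog.

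Medullary stroma-like cells had more Bmp4, Bmper, Nog, Sostdc1 and Id3 than cortical stroma-like cells and less Id1 and Id2. When the stroma-like and mural-like cells and an unnamed cluster of 687 cells led by Gucy1a3 and Rgs5 were clustered again, 259 cells took the name medullary stroma-like (led by Nts, Wnt4 and Cck) and 588 cortical stroma-like (led by Scx, Ntn1 and Reln). Of the 8 genes tested 7 were called, 5 higher in medullary stroma-like cells and 2 lower, where 29.2% of all genes were called (15.1% higher, 14.1% lower). Bmp4 was 154 and 138 CPM in medullary against 45.0 and 29.4 in cortical stroma-like cells (log2 fold change 1.94 ± 0.14, adjusted p = 1.2e-10). Sostdc1 was 61.5 and 72.6 against 4.57 and 1.23 CPM (4.43 ± 0.37), Bmper 22.7 and 28 against 1.41 and 0.408 (4.67 ± 0.52) and Id3 1035 and 1050 against 493 and 522 (1.0 ± 0.09, adjusted p = 4.7e-09). Nog was counted in 13 and 11 UMIs against 0 and 1, a direct ratio of 51.9 with a 95% counting interval of 8.46 to 2134. The cortical Sostdc1 and Bmper levels overlapped those of erythroid-like cells, and the cortical Nog level lay below. The sizes of these differences are therefore limited by background. In replicates 1 and 2 alone the differences of log2 CPM were 3.46 and 2.33 for Nog and 3.13 and 3.99 for Bmper, and Sostdc1 was 3.36 in replicate 1 alone. These are not fitted values, and low counts make them smaller in size. Id1 was lower in medullary stroma-like cells, at 140 and 120 against 288 and 246 CPM (-1.08 ± 0.13, adjusted p = 2.9e-07), and Id2 was lower by a smaller amount (-0.39 ± 0.11, adjusted p = 0.012), a call that DESeq2 did not make (-0.38, adjusted p = 0.17). Bmp7 (0.97 ± 0.59, adjusted p = 0.24) did not pass the test. Id1 and Id3 thus went in opposite directions between the same pair of sub-classes.

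The other interstitial sub-clusters filled in the picture as levels without a test. The adventitial-like sub-cluster, led by Clec3b and Dpt, shared Bmper with the medullary one (54.1 and 24.6 CPM) but had little Sostdc1 (11.5 and 0), and Bmp4 stood at 90.2 and 77.7. An unnamed sub-cluster led by Kcnk2, Hhip and Agtr1a had Sostdc1 at 21.6 and 27.1 CPM, Bmp4 at 102 and 92.2 and Id3 at 1016 and 1088, together with low Id1 at 90.5 and 70.5. Mesangial-like cells had Bmp4 at 77.2 and 68.3 CPM and Bmper at 1.35 and 0.704. The 39 smooth muscle-like cells had Bmp4 at 121 and 122 CPM and Id2 at 447 and 461, and their Nog rested on 4 and 2 UMIs. Bmp4 was thus present in every named interstitial sub-class and lowest in the cortical one.

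**Figure D4:**
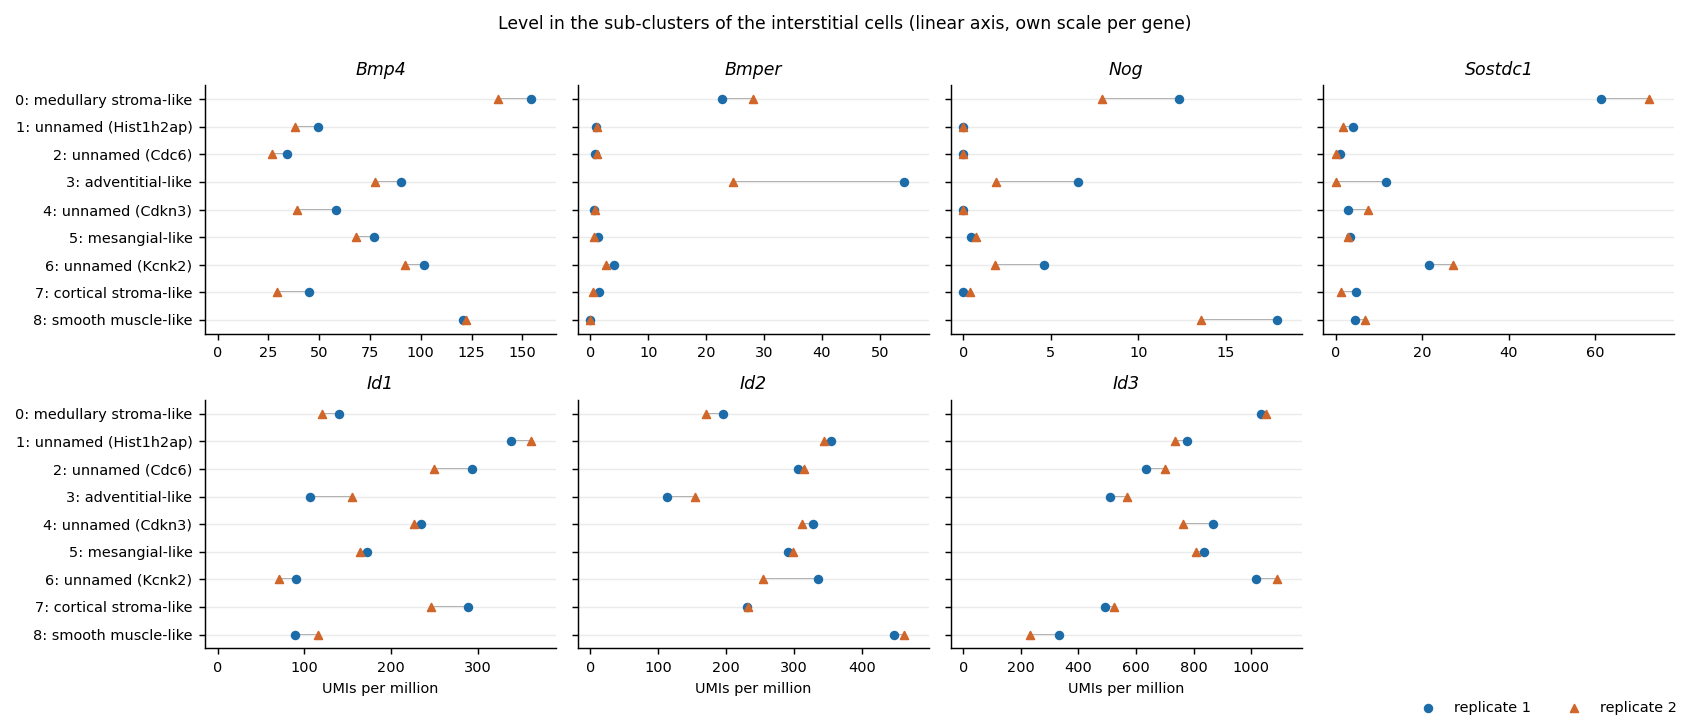
Each panel plots 1 gene, with CPM on a linear horizontal axis of its own and 9 sub-clusters of interstitial cells on the vertical axis; a leading gene stands in brackets where no name was given, circles are replicate 1 and triangles replicate 2. Bmp4, Sostdc1 and Id3 are high and Id1 is low in the medullary sub-cluster, while the cortical sub-cluster has Bmp4 of 45.0 and 29.4.

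The ureteric and endothelial classes were also uneven inside. The ureteric cluster with Ret and Wnt11, genes of the branching tips, among its leading genes (cluster 32) had Bmp7 at 109 and 120 CPM and Id3 at 375 and 273, whereas the cluster led by Sprr2f and Fxyd4 and holding the water channel gene Aqp2 (cluster 14) had Bmp7 at 53.0 and 53.6 and Id3 at 1381 and 1153. Id1 moved with Id3, at 63.6 and 43.5 against 344 and 248 CPM. In endothelial-like cells, Bmp4 was concentrated in the arterial-like sub-cluster (160 and 132 CPM against 21.5 and 31.9 in the plexus and vein-like cells), where Id1 was also highest (871 and 1235 against 509 and 484). The glomerular-like endothelial cells had Bmp4 at 51.0 CPM in replicate 1 and 8.63 in replicate 2. Bmp2 was 13.2 and 15.1 CPM in plexus and vein-like cells and 22.0 and 19.4 in glomerular-like cells.

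In the remaining contrasts the list of 47 other pathway genes was called as follows. Against endothelial-like cells 24 were higher and 13 lower of 44 tested, where 26.5% of all genes were higher and 25.2% lower; among the largest were Msx1, a BMP target, at least 90.9-fold higher in endothelial-like cells because stroma-like cells had no UMI, and the modulator gene Vwc2, at least 20.5-fold higher in stroma-like cells. Against ureteric epithelium-like cells 21 were higher and 9 lower of 44 (27.8% and 29.7% of all genes), led by Vwc2 (at least 15.8-fold higher), Bmp5 (at least 10.2-fold higher) and Fst, the follistatin gene, at 14.5 ± 0.37 against 0.0969 ± 0.14 CPM. In early nephron-like against progenitor-like cells 12 were higher and 14 lower of 44 (20.5% and 23.8% of all genes), and of 10 receptors none was called higher and 5 lower; Bmp3, at 11.4 ± 1.1 against 0.569 ± 0.39 CPM, led the list (4.11 ± 0.30), with Msx1 and Smoc1 behind it at 1 to 2 UMIs per library in the progenitor-like class. In podocyte-like against early nephron-like cells 14 were higher and 14 lower of 44, close to the shares of all genes (32.0% and 29.9%), among them the ligand gene Gdf5 at 4.86 ± 0.56 against 0.0426 ± 0.060 CPM, and Msx1 and Chrdl1 at least 4.67-fold and 3.73-fold lower.

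In loop of Henle-like against proximal tubule-like cells 15 pathway genes were higher and 10 lower of 44 tested, where 23.5% of all genes were higher and 23.0% lower. Gata2, a transcription factor gene, was higher at 6.27 ± 4.5 against 0.245 ± 0.19 CPM, and Chrd, the chordin gene, was lower at 0.0612 ± 0.087 against 2.08 ± 0.24. Fst was also lower, but 147 of its 149 proximal UMIs came from replicate 2. In medullary against cortical stroma-like cells 18 of 36 tested genes were higher and none was lower, where 15.1% of all genes were higher; 7 of 12 modulators and 6 of 7 feedback and target genes were among them. Vwc2 was at least 44.7-fold higher in the medullary cells, and Gata2 stood at 32.0 ± 2.5 against 0.408 ± 0.58 CPM.

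The gene whose level over the 22 class-by-library sums was most like that of each gene was found by Pearson correlation of log2(CPM + 1) among the 9239 genes whose mean reached 10 CPM. The closest was Cadm4 for Bmp7 (r = 0.963, then Cxadr at 0.947 and Sema3b at 0.926), Armcx2 for Id3 (0.967), Arrdc4 for Id2 (0.936), Paqr5 for Sostdc1 (0.934), Pear1 for Id1 (0.924), Pdzd2 for Bmp4 (0.891) and Chst11 for Bmp2 (0.836). These sums come from only 2 libraries and share library, depth and class, so the values are descriptions. Bmper, Nog and Grem1 had means under 10 CPM and were left out. Among the 10 genes themselves the highest correlation was between Id1 and Id3 (r = 0.852) and the lowest between Bmp7 and Id2 (-0.148), while that between Id1 and Id2 was 0.477.

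Free RNA was measurable for these genes. In barcodes with at most 100 UMIs, Id3 was 404 ± 19 CPM against 511 ± 6.5 in all kept cells, Sostdc1 77.8 ± 3.6 against 111 ± 16 and Bmp4 50.1 ± 3.9 against 63.4 ± 5.0 (SD, n = 2 libraries). The share of cells with a UMI was therefore set against immune-like cells, with each cell thinned to 5000 UMIs and shallower cells left out. Bmp7 was detected in 71.0% and 63.0% of thinned podocyte-like cells (82.7% and 81.7% unthinned, median depth 7465 and 8368.5 UMIs) and in 0.680% and 1.05% of thinned immune-like cells (0.559% and 0.826% unthinned, 8487 and 8669). Sostdc1 was detected in 85.6% and 90.1% of thinned loop of Henle-like cells (91.2% and 94.7% unthinned) against 0.680% and 3.16% of immune-like cells (2.23% and 3.31%). Bmp2 was found in only 9.55% and 13% of thinned early nephron-like cells (22.1% and 25.7% unthinned) against 1.36% and 4.21% of immune-like cells (3.35% and 8.26%), so most cells of its highest class had no Bmp2 UMI at this depth. Left out by the thinning were 53 and 23 podocyte-like, 11 and 7 loop of Henle-like, 2 and 3 early nephron-like and 32 and 26 immune-like cells.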

How the data were processed

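The deposited files hold raw UMI counts per gene and barcode, unfiltered. Cell Ranger 4 wrote them per the file headers, and the submitters' processing notes name Cell Ranger 6.0.1 and mm10; the annotation version is not given in the sources used here. Replicates were numbered in record order. The genes, gene lists and markers were chosen with earlier results of these data known, and the 10 genes and the 47 pathway genes were kept out of the clustering, with 18 cell-cycle and 6 sex-linked genes.

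Likely doublets (highest Scrublet scores, in a share growing with library size, expected rate 6%) numbered 310 (4.98%) and 212 (4.12%), and 690 and 768 barcodes passed the mitochondrial limit. Cells of both libraries were clustered together with scanpy 1.11.5 and igraph 0.11.9 in Python 3.11.15 (10000 UMIs per cell, 2000 variable genes, 30 components, 15 neighbours, Leiden resolution 1, sub-clusters 0.5). A cluster took the name of its highest-scoring list, with at least 3 markers in 10% of its cells, at least 20 cells, a score of at least 0.7 (sub-clusters 0.3), and, for the loop, Slc12a1 in 50% of cells. The score limits and the Slc12a1 rule were set after the clusters were seen. The ureteric sub-cluster that took the collecting duct name by these rules was led by Upk3a and Sprr1a, so the text does not use that name. Named genes are all 10 genes, and per contrast up to 3 called pathway genes of largest change with equal sign in each library; some of these are not reported here.

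UMIs were summed per library and class and tested with edgeR 4.0.16 (R 4.3.3, limma 3.58.1; TMM, filterByExpr, library as a block), in 1 fit over 11 classes (22 sums, 15567 genes, 10 residual degrees of freedom) and 1 over 4 interstitial sub-classes (8 sums, 10395 genes, 3 degrees of freedom). The block is the library from which both classes of a contrast come. In the fit over classes the common dispersion was 0.00413 with the block and 0.0132 without it. The threshold was an adjusted p of 0.05. Standard errors of the edgeR values were derived as the absolute log2 fold change divided by the square root of the F statistic of its test. On simulated counts for the contrast of stroma-like with nephron progenitor-like cells (14415 genes, dispersion 0.02), 56 of 81 2-fold changes (69.1%) and 98 of 104 4-fold changes (94.2%) were called, with 8 calls among 14230 unchanged genes. The simulation gave all classes 1 profile apart from the planted changes, no library effect and a dispersion above that of the fit. These rates therefore describe the simulated counts and not the test on these data. Intervals are exact and cover counting error only. The planned contrast of distal with proximal tubule has no main value, since no cluster took the distal name at the main setting; loop of Henle-like against proximal tubule-like cells took its place after the data were seen.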

Additional observations from a re-analysis of the deposited data

How the results depend on the processing

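The alternatives were DESeq2 1.42.0, no filter on low counts, no doublet removal, a mitochondrial limit of 5%, at least 5000 UMIs per cell, Leiden resolutions 0.5 and 2, a per-cell marker gate, no replicate block, each library alone and, added after the data were seen, the stroma-like class with the Rgs5-led cluster. In the tested settings that gave a contrast, the number of the 10 genes called stayed within 1.5 times its main value in each of the 7 contrasts, as did the pathway list between stroma-like and nephron progenitor-like cells. Over all genes, 1576 in place of 3032 were called with DESeq2 between medullary and cortical stroma-like cells, and 4225 in place of 6896 with the 5% limit between early nephron-like and progenitor-like cells. Of 462 tested alternatives of the 53 called differences, 443 kept direction and call, 17 lost the call and 2 turned: Id2 in early nephron-like against progenitor-like cells (0.22, Leiden 0.5) and Sostdc1 in podocyte-like against early nephron-like cells (0.04, at least 5000 UMIs). Of 79 tested alternatives of the 9 differences not called, 10 became called and 6 turned. Of the single-library values, all 106 of the called differences kept their direction and 3 of 18 of those not called turned. The turned values were Id1 (-0.07, marker gate) and Id2 (0.01 without replicate 1) in stroma-like against ureteric epithelium-like cells, and, in early nephron-like against progenitor-like cells, Bmp7 (-0.06 with at least 5000 UMIs, -0.01 without replicate 1), Nog (-0.14 with the 5% limit, -0.12 without replicate 2) and Id3 (0.26 with at least 5000 UMIs, 0.07 and 0.02 at Leiden 0.5 and 2). Nog in the last contrast was called with the marker gate (1.09). Leaving out the other library kept the sign, with Id2 at -0.16 and Bmp7 at 0.1 without replicate 2 and Nog at 0.21 without replicate 1. The causes were not tested.

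Without the replicate block, 7 genes in place of 9 were called between podocyte-like and early nephron-like cells and 8 in place of 9 between stroma-like and endothelial-like cells, the counts of the other 5 contrasts were the same, and 32 in place of 34 genes of the pathway list were called between stroma-like and nephron progenitor-like cells. Over all 15567 genes, 9199 in place of 9631 were called in the podocyte contrast. In the endothelial contrast it was 7494 in place of 8051, and in that of stroma-like with nephron progenitor-like cells 7880 in place of 8607. A library alone leaves no residual degrees of freedom, so those values carry no test. They are differences of log2 CPM with a small prior count, so their size is not directly comparable with the fitted values. With the 5% limit there was no ureteric, loop or medullary contrast, and with the marker gate no medullary one, and Leiden 0.5 gave the same medullary and cortical cells as the main setting and is not counted for them. A distal tubule-like class formed in 4 settings, and 9 genes were tested there against proximal tubule-like cells. At Leiden 2, 8 were called, where 6772 of 15307 genes were called over all genes. With at least 5000 UMIs 6 were called (6734 of 15293), without doublet removal 9 (7144 of 15408) and with the marker gate 8 (7329 of 15382). Bmp2 was higher in distal tubule-like cells by 3.85 to 5.69 and Bmp7 by 1.69 to 2.11 on the log2 scale. Bmper was lower there in all 4 settings (-3.55 to -0.74), called only without doublet removal (adjusted p = 0.011), whereas it was higher in loop of Henle-like cells. Per-cell gating put 473 of 10847 cells (4.36%) within 0.1 of a second class. Unnamed clusters, whose shares partly follow from limits set after seeing the data, held 1786 of the 10847 cells, against 441 at Leiden 0.5.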
